A study of Mus musculus with 8 samples.

Results

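The genes described here encode the enzymes that build purine and pyrimidine nucleotides and the folate and methyl cycles that feed them carbon. Members were chosen by symbol, as the probe sets whose gene symbol in the platform annotation equalled a name on a list of 33 genes. Of these, 32 were found, with 73 probe sets, among the 18193 genes measured in all, and Mat2a, which had no probe set of its own symbol, was not analysed here. The brightest probe set, by mean level on the 8 arrays, stands for each gene.

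The samples were 8 mouse cell cultures, each hybridised to 1 Affymetrix array. The first group held 4 lines, numbered 3 to 6, that were derived from separate tumours which JoMa1 cells transfected with MYCN had formed in immunocompromised mice. A single array came from JoMa1 cells labelled as transfected with a GFP control. The last group held 3 arrays of parental JoMa1, a mouse line of neural crest precursor cells. JoMa1 carries a MYC fusion protein that tamoxifen switches on, but the sources used here give neither the tamoxifen treatment of the groups nor the promoter that drove MYCN. Cells were harvested from culture before confluence, so the lines are cultures grown out of tumours, and cells of the host mouse could remain among them.

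Cells make purines by building the ring stepwise on phosphoribosyl pyrophosphate (PRPP), and make pyrimidines by closing the ring first and adding the sugar phosphate afterwards. Both routes draw on amino acids, and the purine ring and thymidylate also take one-carbon units carried by folate, many of which come from serine. Proteins of the MYC family are known to bind and activate many of these genes, and the routes are targets of classical antimetabolite drugs. Salvage enzymes reuse finished bases and nucleosides instead.

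Levels are the authors' RMA values on the log2 scale, differences are log2 differences, and the SD of a group follows the ± sign. A gene was called where limma's adjusted p was under 0.05 over all genes. Array medians ran from 6.26 to 6.30, and the bacterial trpnX controls, which mark the floor, averaged 3.84 to 4.04. The targeted gene Mycn stood at 14.17 ± 0.08 in tumour lines (n = 4), at 11.73 in the library labelled GFP-transfected and at 7.42 ± 0.12 in parental arrays (n = 3), while another Mycn probe set, at 4.60, 4.33 and 8.13 in the same order, moved the opposite way. The Mycn signal of that library goes against its label, so directions drawn from it carry this limit. Myc differed between groups as well, at 9.90 ± 0.52 in tumour lines, 7.23 in that library and 8.64 ± 0.12 in parental arrays. It was called higher in tumour lines than in parental arrays (1.26, SE 0.25, limma adjusted p = 0.00443), and that library differed from the parental mean by -1.41. Of 10 neural crest markers, the labelled cell type's, 1 (10%) was called higher in tumour lines than in parental arrays (Snai2, 0.53). Called lower were 2 (20%), Pax3 (-1.17) and Ets1 (-0.58), while 16.6% of all genes were called higher and 19.4% lower. Summed log2 levels of the 10 markers were 81.5 to 83.1 in tumour lines, 81.7 in the library labelled GFP-transfected and 83.0 to 83.3 in parental arrays. In that library Pax3 (-1.21) and Snai2 (-0.82) were called lower than in parental arrays. Sox10 read 7.42, 7.35 and 7.34 in the mean of tumour lines, in the library labelled GFP-transfected and in the parental mean, whereas Foxd3 (4.68, 4.56 and 4.59) and Ngfr (5.36, 5.56 and 5.40) were near the floor. Actin, read as its 3′ minus its 5′ probe set, a sign of RNA quality, gave 0.52 to 0.61 in tumour lines, 0.62 in the library labelled GFP-transfected and 0.63 to 0.64 in parental arrays. The same measure of Gapdh went the opposite way, at 0.0922 to 0.151 in tumour lines, 0.075 in the library labelled GFP-transfected and 0.0525 to 0.0782 in parental arrays.

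Tumour lines had lower levels of 3 mitochondrial folate enzymes, of several enzymes of ring synthesis and of 2 of 4 deoxynucleotide genes, Rrm1 and Dut. They had higher levels of the nucleoside diphosphate kinases Nme1 and Nme2, the thymidine kinase Tk1, the CTP synthetase Ctps2 and the folate enzymes Aldh1l2 and Shmt1. The calls of Dut, Tk1 and Shmt1 ended under some of the alternative analyses given below. Relative to parental arrays, 8 of the 32 members were called higher in tumour lines and 11 lower, while 16.6% of all genes were called higher and 19.4% lower. All 32 lay above the median level of all genes. Among the 9096 genes above that median, 23.1% were called higher and 31.4% lower, close to the members' 25.0% and 34.4%, so the number of calls was near that of other well-expressed genes. The members' median difference was -0.16, beside 0.01 for all genes and -0.06 for the genes above the median level. Members differed by -1.08 to 1.62.

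In 18 members every tumour line read below every parental array and in 8 every line read above, against 37.2% and 27.4% of the genes above the median level and 23.2% and 21.2% of all genes. The remaining 6 overlapped. Tumour lines varied more among themselves than parental arrays did, with a median SD of 0.125 over the members in tumour lines and 0.0364 in parental arrays. For all genes these medians were 0.128 and 0.0796. The p-values rest on a spread pooled over groups, between the 4 tumour lines and between the 3 parental arrays. Separate cultures are not named for the parental arrays, so their part of that spread may be technical. Line 3 was the highest of the 4 lines in 15 members and the lowest in 0, and line 4 was the lowest in 13. In these bulk cultures fewer cells of a type and less RNA per cell cannot be told apart.

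**Figure D1:**
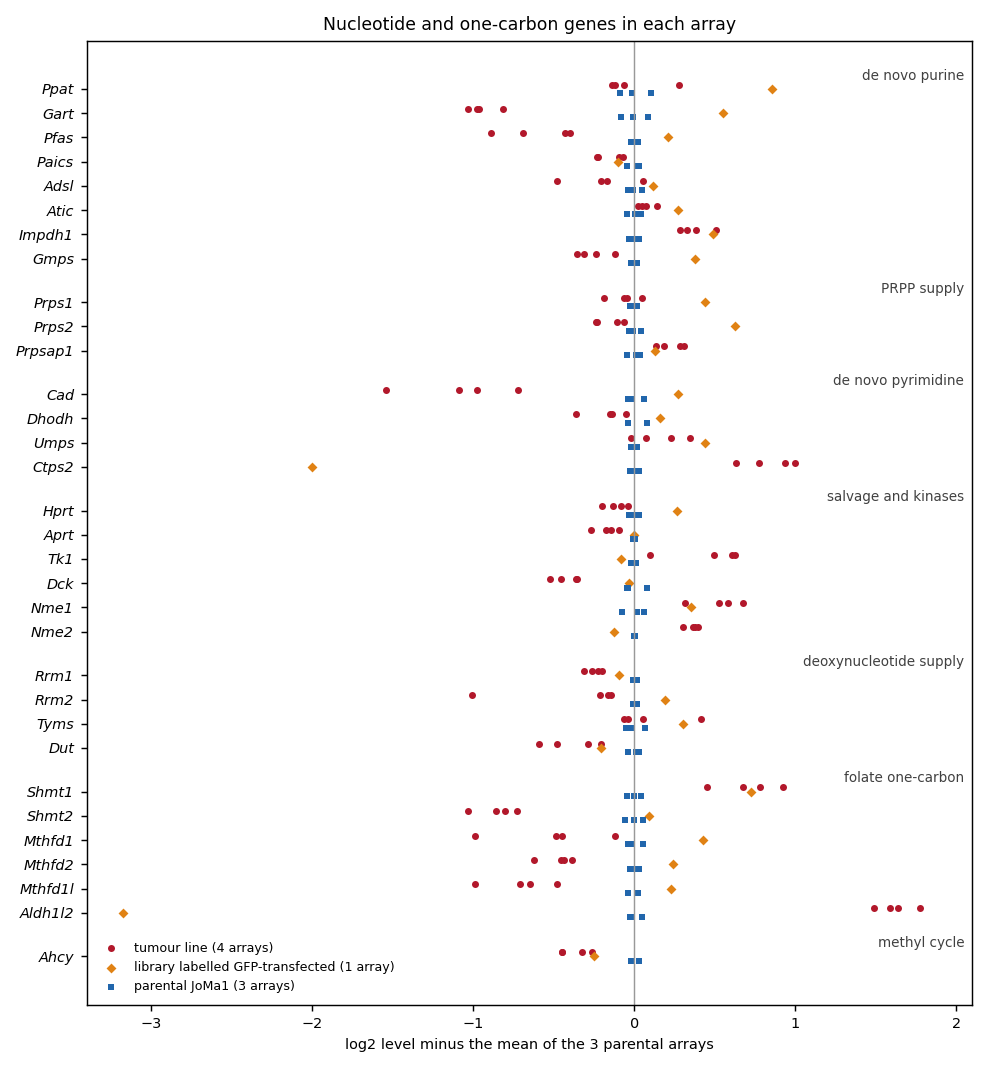
Each point is 1 array, plotted as its log2 level minus the mean of the 3 parental arrays (x axis), for the 32 member genes grouped by pathway (y axis), with circles for tumour lines, diamonds for the library labelled GFP-transfected and squares for parental arrays. Squares cluster near 0, circles lie to the left for Gart, Cad and Shmt2 and to the right for Aldh1l2 and Ctps2, and the diamonds of Aldh1l2 and Ctps2 lie far to the left.

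In purine synthesis Gart and Pfas, which act in building the ring, were called lower. Of the genes that act after the ring is closed, Gmps was called lower and Impdh1 was called higher. Of the 8 genes of the route, 3 were called lower in tumour lines than in parental arrays, 1 was called higher and 4 were not called, with a median difference of -0.18. Gart encodes a trifunctional enzyme that carries out early ring-building steps and uses a folate one-carbon unit. It read 9.87, 9.81, 9.87 and 10.03 in tumour lines 3, 4, 5 and 6, 11.39 in the library labelled GFP-transfected, and 10.83, 10.93 and 10.76 in parental arrays 1, 2 and 3. Every tumour line lay below every parental array, and the difference was -0.95 (SE 0.08, 1.93-fold, limma adjusted p = 4.21e-05). Its other probe sets differed less, by -0.39 (called), -0.13 and -0.01 (neither called), and the mean of its probe sets by -0.37 (adjusted p = 0.00418).

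Pfas, whose product adds an amide nitrogen from glutamine to the growing ring, read 10.36, 9.87, 10.06 and 10.32 in tumour lines 3 to 6, 10.96 in the library labelled GFP-transfected, and 10.73, 10.78 and 10.75 in parental arrays 1 to 3. The groups did not overlap, and Pfas was lower in tumour lines, with a difference of -0.60 (SE 0.12, limma adjusted p = 0.00486). Gmps, which makes GMP, differed by -0.26 (SE 0.08, limma adjusted p = 0.0274), and its other probe sets by 0.04 and 0.09. The call of Gmps ended without parental array 1, 2 or 3 or without tumour line 5 or 6 (-0.22 to -0.27, adjusted p 0.0583 to 0.0865), and the mean of its probe sets differed by -0.04.

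Impdh1, which commits IMP to the guanine branch, was the member of this route that was higher. It averaged 9.31 ± 0.10 in tumour lines (n = 4), read 9.43 in the library labelled GFP-transfected and averaged 8.94 ± 0.03 in parental arrays (n = 3), a difference of 0.37 between tumour lines and parental arrays (SE 0.07, limma adjusted p = 0.00421). With the library labelled GFP-transfected counted among the parental arrays it was not called (0.25, adjusted p = 0.17). That library stood 0.49 above the parental mean.

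Ppat, the enzyme of the committed step, showed the smallest difference of the route. Its brightest probe set read 11.12, 10.78, 10.73 and 10.71 in tumour lines 3 to 6, 11.70 in the library labelled GFP-transfected, and 10.83, 10.95 and 10.76 in parental arrays 1 to 3. The lines and the parental arrays overlapped, with a difference of -0.01 (SE 0.11, limma adjusted p = 0.956), though another probe set of Ppat was called lower (-0.45, adjusted p = 0.0163 over all probe sets). Ppat and Paics are neighbours on chromosome 5 of GRCm38.p6, on opposite strands, with starts 276 bases apart. The start of Paics lies inside Ppat, so the 2 genes overlap there. Paics, a bifunctional enzyme of the middle steps, differed by -0.16 (SE 0.07), Adsl, which releases fumarate in purine synthesis, by -0.20 (SE 0.12) and Atic, which closes the ring, by 0.07 (SE 0.06), and none of the 3 was called. Every tumour line read below every parental array with the brightest probe set of Paics, while the groups overlapped with its other probe sets (-0.15 and -0.04, neither called).

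PRPP, the activated sugar that purine and pyrimidine synthesis share, is made by Prps1 and Prps2, with Prpsap1 as a regulatory partner. Prps1 read 11.16, 11.27, 11.04 and 11.18 in tumour lines 3 to 6, 11.66 in the library labelled GFP-transfected, and 11.25, 11.20 and 11.23 in parental arrays 1 to 3. Tumour lines and parental arrays overlapped, and the difference of -0.06 (SE 0.07) was not called. Prps2 differed by -0.16 (SE 0.07, not called), while its other probe sets, at -0.33 and -0.55, were both called lower and the mean of its probe sets was called lower too (-0.35, adjusted p = 0.0037). Prpsap1 was called higher by a small margin (0.23, SE 0.07, limma adjusted p = 0.0346). That call ended without parental array 1, 2 or 3, without tumour line 3 or 6 (0.20 to 0.24, adjusted p 0.0713 to 0.113), and when the library labelled GFP-transfected was counted as parental (0.19, adjusted p = 0.0657).

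In pyrimidine synthesis 1 of 4 genes was called lower, at the entry step, and 1 higher, at a late step. Cad, the trifunctional enzyme that opens the route, read 10.96, 10.14, 10.59 and 10.70 in tumour lines 3 to 6, 11.95 in the library labelled GFP-transfected, and 11.74, 11.64 and 11.66 in parental arrays 1 to 3. No tumour line reached the parental range, line 4 was the lowest, and the difference was -1.08 (SE 0.17, 2.12-fold, limma adjusted p = 0.00124). Both other probe sets of Cad were called lower as well, by -0.58 and -1.41.

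Ctps2, a CTP synthetase, went the other way. It read 10.52, 10.36, 10.59 and 10.22 in tumour lines 3 to 6, 7.59 in the library labelled GFP-transfected, and 9.59, 9.56 and 9.62 in parental arrays 1 to 3. All lines lay above all parental arrays (0.83, SE 0.10, 1.78-fold, limma adjusted p = 0.000242), and its other probe sets were called higher by 0.44 and 0.54. With that library counted among the parental arrays the difference was 1.33 (adjusted p = 0.0478). Ctps, a CTP synthetase outside the member list, was brighter, at 12.40 in tumour lines and 12.48 in parental arrays. It was not called (-0.08, SE 0.07, limma adjusted p = 0.476).

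Umps, which carries out the last steps to UMP, read 10.85, 10.48, 10.57 and 10.72 in tumour lines 3 to 6, 10.94 in the library labelled GFP-transfected, and 10.52, 10.48 and 10.50 in parental arrays 1 to 3. Line 4 lay just under the parental range and the other lines above it, and the difference of 0.16 (SE 0.09) was not called. Another probe set of Umps was called higher (0.57, adjusted p = 0.00263 over all probe sets), as was the mean of its probe sets (0.25, adjusted p = 0.0387). Dhodh, the enzyme of this route in the inner mitochondrial membrane, differed by -0.17 (SE 0.09) and was not called.

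Of 6 genes of salvage and phosphorylation, 3 were called higher, 1 was called lower and 2 were not called. Nme1 and Nme2 encode nucleoside diphosphate kinases, which balance the triphosphate pools, and lie on the same strand of chromosome 11 with starts 12016 bases apart. Nme1 read 13.36, 13.45, 13.09 and 13.30 in tumour lines 3 to 6, 13.13 in the library labelled GFP-transfected, and 12.80, 12.84 and 12.70 in parental arrays 1 to 3. All lines exceeded all parental arrays (0.53, SE 0.10, 1.44-fold, limma adjusted p = 0.00272). Nme2 averaged 14.38 ± 0.04 in tumour lines (n = 4), read 13.89 in the library labelled GFP-transfected and averaged 14.02 ± 0.0032 in parental arrays (n = 3), a difference between tumour lines and parental arrays of 0.36 (SE 0.06, limma adjusted p = 0.00194). The sequences of Nme1 and Nme2 are closely related, and how far each probe set separates them was not tested. Of the Nme genes outside the member list, Nme6 was called higher (0.41), Nme4 was called lower (-0.52) and Nme7 was not called (-0.12).

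Tk1, the thymidine kinase of dividing cells, read 11.68, 11.81, 11.28 and 11.79 in tumour lines 3 to 6, 11.10 in the library labelled GFP-transfected, and 11.20, 11.20 and 11.16 in parental arrays 1 to 3. All lines lay above all parental arrays, with line 5 close to them, and the difference was 0.46 (SE 0.13, limma adjusted p = 0.0216). The call ended without parental array 1, 2 or 3 or without tumour line 6 (0.41 to 0.46, adjusted p 0.0529 to 0.0725). Dck, which phosphorylates deoxycytidine, was lower, at 11.49 ± 0.08 in tumour lines (n = 4), 11.88 in the library labelled GFP-transfected and 11.92 ± 0.07 in parental arrays (n = 3), a difference of -0.43 between tumour lines and parental arrays (SE 0.07, limma adjusted p = 0.00215).

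Neither base-salvage enzyme was called. Hprt, which recovers hypoxanthine and guanine, read 12.34, 12.22, 12.29 and 12.38 in tumour lines 3 to 6, 12.68 in the library labelled GFP-transfected, and 12.42, 12.45 and 12.38 in parental arrays 1 to 3. All lines lay just below all parental arrays, with a difference of -0.11 (SE 0.07). Aprt, which recovers adenine, differed by -0.17 (SE 0.07, limma adjusted p = 0.0843). It was called lower with another probe set (-0.28) and with the mean of its probe sets (-0.22).

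Of 4 genes that supply deoxynucleotides, 2 were called lower and 2 were not called. Rrm1, the large subunit of ribonucleotide reductase, averaged 12.20 ± 0.05 in tumour lines (n = 4), read 12.36 in the library labelled GFP-transfected and averaged 12.45 ± 0.01 in parental arrays (n = 3), a difference of -0.25 between tumour lines and parental arrays (SE 0.06, limma adjusted p = 0.0134). Dut, which removes dUTP, differed by -0.39 (SE 0.10, limma adjusted p = 0.0152), and its call ended without parental array 1 (-0.38, adjusted p = 0.0602) or 2 (-0.39, adjusted p = 0.0534). The other probe set of Dut differed by 0.04, and the mean of both by -0.18 (adjusted p = 0.313).

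Rrm2, the small reductase subunit that peaks in S phase, read 12.54, 11.75, 12.62 and 12.60 in tumour lines 3 to 6, 12.95 in the library labelled GFP-transfected, and 12.78, 12.75 and 12.75 in parental arrays 1 to 3. All lines lay below all parental arrays and line 4 stood apart at the low end, and the difference of -0.38 (SE 0.20, limma adjusted p = 0.188) was not called. Without line 4 it was -0.17 (adjusted p = 0.0756). Another probe set of Rrm2 was called lower (-0.78, adjusted p = 0.00586 over all probe sets) and the third was not (-0.43), and the mean of its probe sets was called (-0.53, adjusted p = 0.0498). Tyms, which makes thymidylate, read 8.12, 7.66, 7.64 and 7.76 in tumour lines 3 to 6, 8.01 in the library labelled GFP-transfected, and 7.77, 7.65 and 7.69 in parental arrays 1 to 3. Its groups overlapped (0.09, SE 0.12, not called). Its remaining probe sets were dim, and a probe set it shares with a pseudogene was left out.

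Markers of dividing cells were read beside these genes. Of 9 measured, 2 (22.2%) were called lower in tumour lines than in parental arrays and 0 higher, against 19.4% and 16.6% of all genes. Those called were Mki67 (-0.60) and Mcm5 (-0.20). The summed log2 level of the 9 markers ran from 107.2 to 108.4 in tumour lines. It was 110.1 in the library labelled GFP-transfected and ran from 108.6 to 108.9 in parental arrays. The part of these markers in the results was not tested.

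Of 6 folate genes, 3 were called lower, 2 were called higher and 1 was not called. In the mitochondrion Shmt2 splits serine into glycine and a one-carbon unit, Mthfd2 oxidises that unit and Mthfd1l releases it as formate. Shmt2 read 11.41, 11.10, 11.33 and 11.28 in tumour lines 3 to 6, 12.23 in the library labelled GFP-transfected, and 12.14, 12.08 and 12.19 in parental arrays 1 to 3. All lines lay below all parental arrays (-0.86, SE 0.09, 1.81-fold, limma adjusted p = 0.000111), and the other 3 probe sets of Shmt2 were called lower too, by -0.45 to -1.05.

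Mthfd2 read 11.51, 11.34, 11.58 and 11.53 in tumour lines 3 to 6, 12.20 in the library labelled GFP-transfected, and 11.99, 11.96 and 11.94 in parental arrays 1 to 3. The groups were apart (-0.47, SE 0.08, limma adjusted p = 0.00142), also with the other probe set (-0.52). Mthfd1l read 10.79, 10.45, 10.73 and 10.96 in the same lines, 11.66 in the library labelled GFP-transfected, and 11.45, 11.46 and 11.39 in parental arrays 1 to 3. It was lower in tumour lines too (-0.70, SE 0.11, 1.63-fold, limma adjusted p = 0.00153).

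Aldh1l2, a mitochondrial enzyme that oxidises the same one-carbon unit to carbon dioxide, was the member with the largest difference. It read 10.54, 10.59, 10.73 and 10.44 in tumour lines 3 to 6, 5.78 in the library labelled GFP-transfected, and 9.00, 8.92 and 8.93 in parental arrays 1 to 3. All tumour lines were above all parental arrays (1.62, SE 0.08, 3.08-fold, limma adjusted p = 2.72e-06), and the library labelled GFP-transfected was far below both. A single probe set represents Aldh1l2, and its difference was 2.42 with that library counted among the parental arrays.

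In the cytosol Shmt1 carries out the serine step. It read 9.64, 9.39, 9.16 and 9.49 in tumour lines 3 to 6, 9.44 in the library labelled GFP-transfected, and 8.71, 8.67 and 8.75 in parental arrays 1 to 3. The lines were all above the parental arrays (0.71, SE 0.11, 1.63-fold, limma adjusted p = 0.0012), while the library labelled GFP-transfected lay within the range of the lines. With that library counted as parental the call ended (0.53, adjusted p = 0.0618), and without the probe sets that can bind several transcripts the difference was 0.39. Mthfd1, the trifunctional enzyme of the cytosol, averaged 11.58 ± 0.36 in tumour lines (n = 4), read 12.51 in the library labelled GFP-transfected and averaged 12.09 ± 0.05 in parental arrays (n = 3). Its difference between tumour lines and parental arrays (-0.51, SE 0.18) missed the threshold (limma adjusted p = 0.052), and it was called without tumour line 3 (-0.64, adjusted p = 0.0128) or without tumour line 4 (-0.35, adjusted p = 0.0369).

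**Figure D2:**
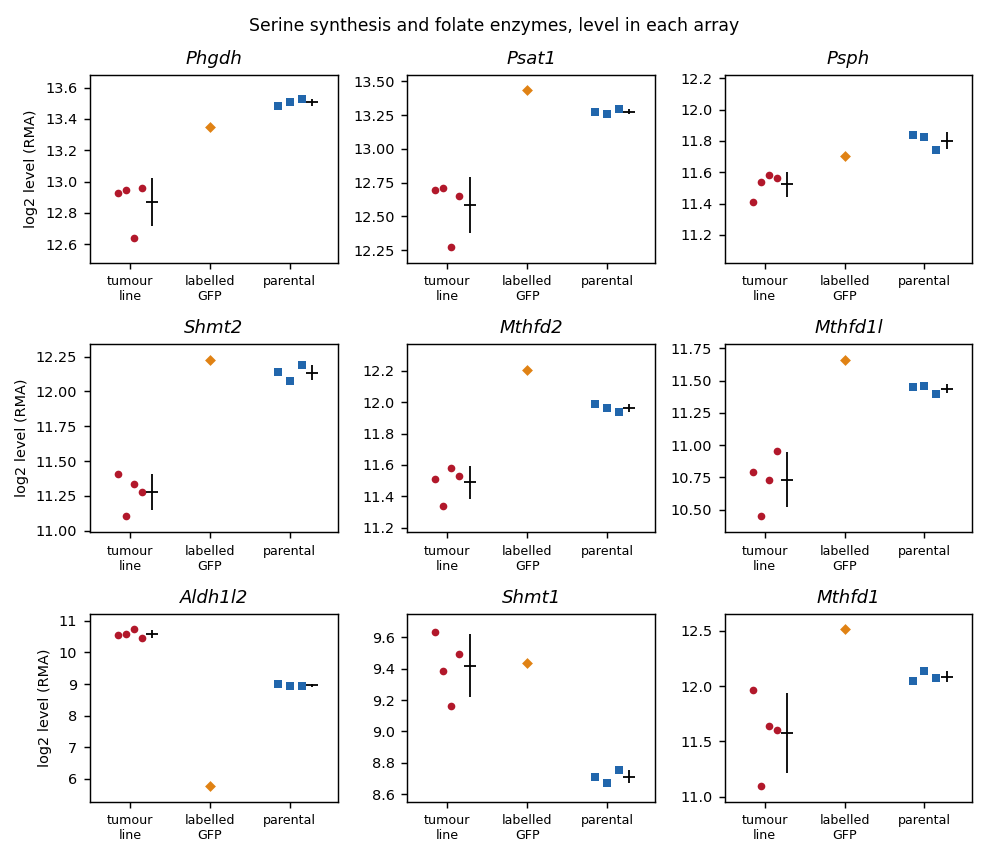
The log2 level (y axis) of serine synthesis and folate genes is shown in each array, with tumour lines left, the library labelled GFP-transfected in the middle and parental arrays right, and with the mean and SD beside the groups of 4 and 3. Tumour lines lie below parental arrays for Phgdh, Psat1, Psph, Shmt2, Mthfd2, Mthfd1l and Mthfd1 and above them for Aldh1l2 and Shmt1, and the scale of the y axis differs between panels.

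Among the members the methyl cycle was represented by Ahcy alone, which hydrolyses S-adenosylhomocysteine. Ahcy read 12.92, 12.86, 12.73 and 12.73 in tumour lines 3 to 6, 12.93 in the library labelled GFP-transfected, and 13.17, 13.21 and 13.16 in parental arrays 1 to 3. Lines and parental arrays were apart (-0.37, SE 0.07, 1.29-fold, limma adjusted p = 0.00433). Of 10 methyl cycle genes outside the member list, 2 (20%) were called higher and 2 (20%) lower, against 16.6% and 19.4% of all genes. Mat2b (0.80) and Mtap (0.38) were higher, and Mtr (-0.60) and Mtrr (-0.85) were lower.

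The other genes of these routes came from a list of 85, of which 70 were measured. Of the 70, 20 (28.6%) rose and 21 (30.0%) fell in tumour lines relative to parental arrays, against 16.6% and 19.4% of all genes and 23.1% and 31.4% of the genes above the median level, with a median difference of -0.01. All 3 genes of serine synthesis, singled out after their values were seen, were called lower. They were Phgdh, which starts the route (-0.64, SE 0.09, limma adjusted p = 0.000823), Psat1 (-0.69, SE 0.11, adjusted p = 0.00153) and Psph (-0.28, SE 0.07, adjusted p = 0.0147), and in each of them all tumour lines lay below all parental arrays.

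Of 10 breakdown genes, limma called 3 higher, against 16.6% of all genes, and 0 lower, against 19.4%, with 0 lower at an unadjusted p under 0.05 as well. Those called higher were Xdh, the nucleotidase Nt5c (11.70 in tumour lines and 10.77 in parental arrays) and Dpyd, which starts pyrimidine breakdown and stood near the floor (4.14 in tumour lines and 3.84 in parental arrays). Xdh, which turns hypoxanthine and xanthine into uric acid, read 9.25, 9.50, 9.95 and 9.31 in tumour lines 3 to 6, 5.16 in the library labelled GFP-transfected, and 5.23, 5.20 and 5.35 in parental arrays 1 to 3. The difference of 4.24 (SE 0.16, 18.9-fold, limma adjusted p = 5.88e-07) was the largest rise of the 70 genes, while the library labelled GFP-transfected differed from the parental mean by -0.10 (SE 0.24, not called). Xdh was dim in parental arrays and in that library, near the floor, which limits the reading of both differences. Gldc, which cleaves glycine in the mitochondrion, was 1.87 higher in tumour lines (SE 0.19, adjusted p = 0.000117), from a dim parental mean of 5.67.

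Upp1, which splits uridine, was higher in tumour lines by 1.83 (SE 0.23) and Cda, which deaminates cytidine, by 1.79 (SE 0.11). The library labelled GFP-transfected was above the parental mean for both as well, by 2.69 and 1.75. The falls with the largest size were those of Ak3, a mitochondrial adenylate kinase (-2.20, SE 0.18), Slc29a1, a nucleoside transporter (-1.71, SE 0.21), Ak5, another adenylate kinase (-1.07, SE 0.10), and Mtrr, which reactivates methionine synthase (-0.85, SE 0.13). The limma adjusted p of each of these falls was 0.00118 or lower.

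**Figure D3:**
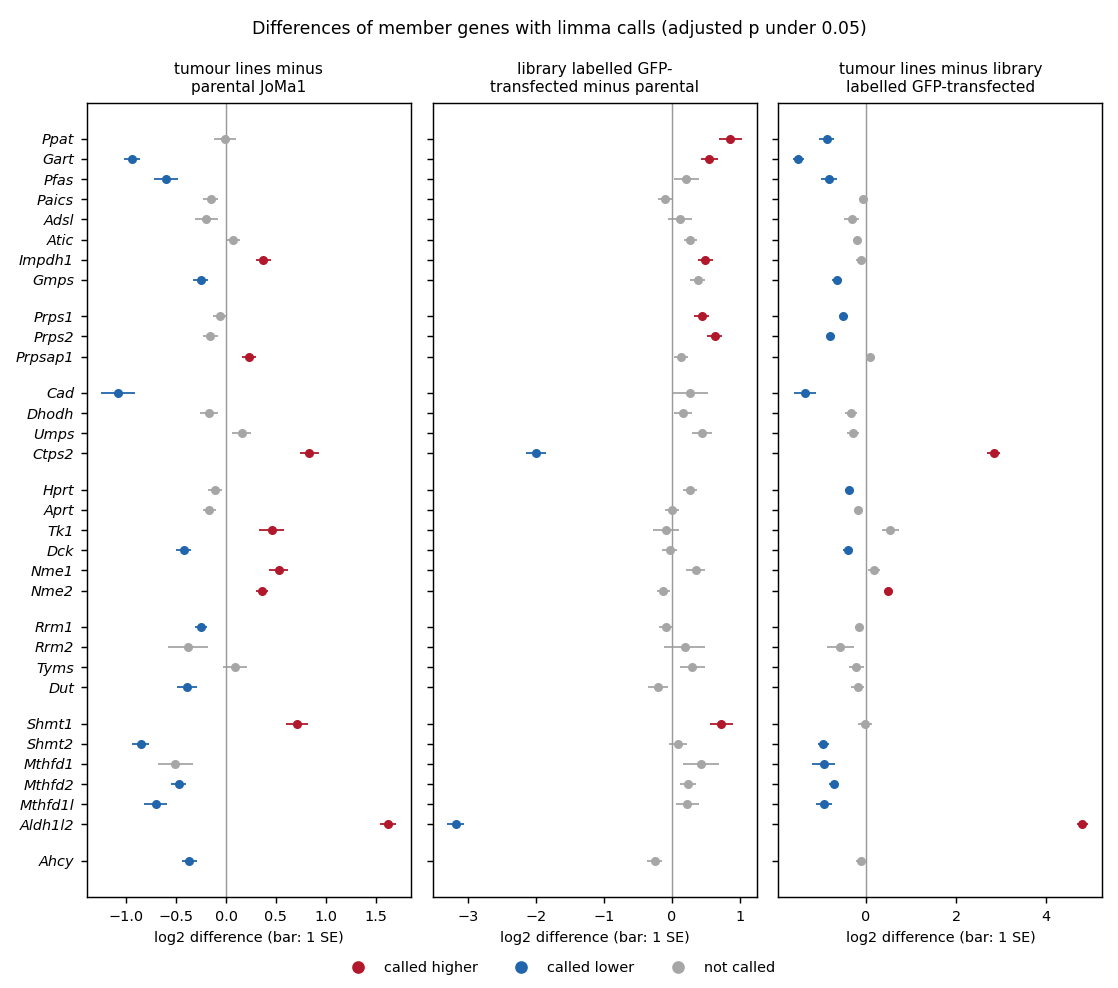
Log2 differences (x axis, bars 1 SE) are drawn for the 32 members (y axis) in 3 comparisons, tumour lines minus parental arrays at left, the library labelled GFP-transfected minus parental arrays in the middle and tumour lines minus that library at right, coloured by limma's call. Aldh1l2 and Ctps2 are called higher at left (1.62 and 0.83), lower in the middle (-3.18 and -2.00) and higher at right (4.80 and 2.83), and the x axis differs between panels.

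The library labelled GFP-transfected was set against the same 3 parental arrays. It is a single array, assumed to vary like the other groups. In it 6 members (18.8%) were called higher than in parental arrays and 2 (6.25%) lower, against 7.43% and 8.66% of all genes and 11.7% and 13.6% of the genes above the median level. The members' median difference was 0.22, and 0.02 for genes above the median level. Higher were Ppat (0.86, SE 0.17, limma adjusted p = 0.0109), Prps2 (0.63, SE 0.11, adjusted p = 0.00598), Gart (0.55, SE 0.12, adjusted p = 0.0157), Shmt1 (0.73, SE 0.17), Impdh1 (0.49, SE 0.11) and Prps1 (0.44, SE 0.11). Purine synthesis, with 8 of the 32 members, and its PRPP supply, with 3, gave 5 of the 6.

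This comparison and that of tumour lines share the parental arrays, and their calls were not set against each other. The calls of Prps1 and Shmt1 ended without parental array 1, 2 or 3 (0.42 to 0.45 for Prps1 with adjusted p 0.0734 to 0.0816, and 0.71 to 0.75 for Shmt1 with adjusted p 0.0501 to 0.0578). The call of Impdh1 ended without parental array 2 (0.47, adjusted p = 0.0559) or 3 (0.49, adjusted p = 0.053). In the same library Aldh1l2 differed from the parental mean by -3.18 (SE 0.12, 9.04-fold, limma adjusted p = 2.79e-06) and Ctps2 by -2.00 (SE 0.15, adjusted p = 7.16e-05). Aldh1l2 was dim in that library (5.78), which limits the reading of its fold size. The other probe sets of Ctps2 differed there by -0.11 and -0.32, neither called, and the mean of its probe sets by -0.81 (adjusted p = 0.00271).

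Tumour lines were then compared directly with the library labelled GFP-transfected. Of the 32 members, 3 (9.38%) were called higher in tumour lines and 13 (40.6%) lower, against 14.0% and 16.4% of all genes and 21.1% and 27.0% of the genes above the median level, with a median difference of -0.30. Aldh1l2 (4.80, SE 0.12), Ctps2 (2.83, SE 0.14) and Nme2 (0.49, SE 0.09) were higher. Among the 13 were Gart (-1.50, SE 0.12), Cad (-1.35, SE 0.25), Shmt2 (-0.95, SE 0.13), Mthfd1 (-0.94, SE 0.26), Mthfd1l (-0.93, SE 0.17), Ppat (-0.87, SE 0.16) and Prps2 (-0.79, SE 0.11). The limma adjusted p-values of these 10 genes were 0.0239 or lower. The others that were lower were Pfas (-0.81), Mthfd2 (-0.71), Prps1 (-0.50), Dck (-0.39) and Hprt (-0.38). Gmps was lower as well (-0.63, SE 0.11), but not with the mean of its probe sets (-0.36, adjusted p = 0.241). With that mean Ctps2 differed by 1.42 and Gart by -0.88, both called. Without tumour line 4, Rrm2 was called lower too (-0.36, adjusted p = 0.0189), and without tumour line 5, Tk1 was called higher (0.66, adjusted p = 0.00198).

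Markers of other cells that a tumour-derived culture could hold were read beside these results. Of 8 leukocyte markers, 2 (25%) were called higher in tumour lines than in parental arrays and 0 lower, against 16.6% and 19.4% of all genes. They were Cd68 (0.80, from 5.73 in parental arrays) and Lyz2 (0.49), and Cd68 was called higher in the library labelled GFP-transfected too (0.75). In 4 of the 8 every tumour line read above every parental array and in 0 below, against 21.2% and 23.2% of all genes. Summed log2 levels were 44.9 to 45.4 in tumour lines, 44.5 in that library and 43.1 to 44.1 in parental arrays. The defining marker Ptprc stood near the floor, at 4.08, 4.25 and 4.14 in tumour lines, that library and parental arrays. Of 5 endothelial markers, limma called 0 between tumour lines and parental arrays, with 0 at an unadjusted p under 0.05, although Cdh5 was called higher in the single GFP-labelled array, by 1.96 over the parental mean, and their sums were 24.9 to 26.3, 26.7 and 24.6 to 25.8 in the same order. Of 6 fibroblast markers, 3 (50%) rose and 1 (16.7%) fell in tumour lines, against 16.6% and 19.4% of all genes. Sums of the 6 markers were 61.6 to 65.4 in tumour lines, 43.3 in the library labelled GFP-transfected and 57.4 to 57.8 in parental arrays. Col1a1 (0.61), Col1a2 (2.99) and Pdgfra (2.56) rose, Col3a1 fell (-0.44), and Dcn (-0.04) and Lum (-0.31) were not called. Parental arrays themselves read 14.22 for Col3a1, 10.82 for Col1a1 and 8.53 for Col1a2. Whether host cells added to the levels in tumour lines was not tested. Pdgfra read 10.92 in tumour lines, 6.76 in the library labelled GFP-transfected and 8.36 in parental arrays. The summed level of this list was highest in tumour lines and lowest in that library, as were Aldh1l2 and Ctps2, and its part in their values was not tested.

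**Figure D4:**
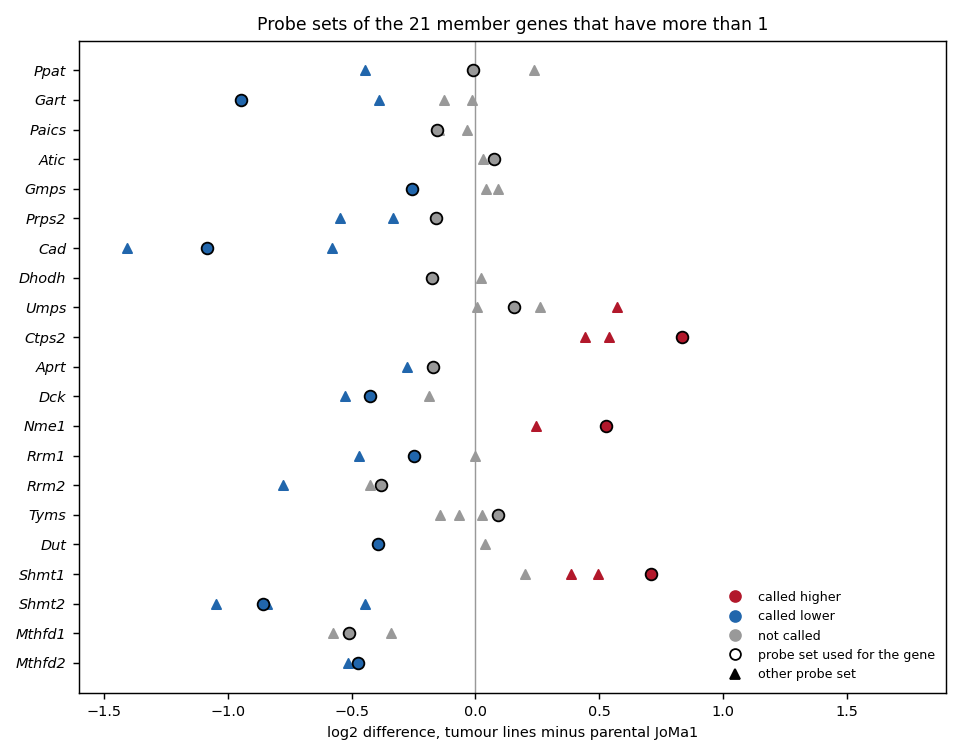
Each point is a probe set of a member gene (y axis) and its log2 difference between tumour lines and parental arrays (x axis), for the 21 members with more than 1 probe set, with each probe set tested singly and outlined circles for the probe set that represents the gene and triangles for the others. Probe sets of Cad, Ctps2, Nme1, Shmt2 and Mthfd2 are all called in 1 direction, and those of Gart and Gmps spread out to 0.

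Among the 11 called members with further probe sets, all of these were called the same way in 5 and some were not called in 6, and in 0 was a probe set called the opposite way. Of the 10 uncalled members with further probe sets, 5 had another one that was called. Of the 73 probe sets, 5 read under 5 in all tumour lines and parental arrays, near the floor, and none of these represents a gene.

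The starts of these genes were searched for the letters that MYC proteins are known to bind, since the tumour lines carry added MYCN. RefSeq promoters of GRCm38.p6 were at hand for 29 of the 32 members, in 34 entries, and the 250 bases before each start were read on both strands. The palindrome CACGTG was in 5 of 34 entries (14.7%), from 4 genes, and in 6.02% of all 32851 promoters. The related CACGCG was in 2 entries (5.88%), those of Prpsap1 and Shmt1, and in 7.62% of all. Of the E2F-type letters, TTTCCCGC was in 1 entry, that of Ppat, and in 0.895% of all, while TTTGGCGC and TTTCGCGC were in 0, beside 0.417% and 0.256% of all. The C/EBP-ATF type letters TGATGNAA were in 1 entry, that of Prps1, and in 3.45% of all. None of these motifs contains another, and a match describes letters and not a bound site.

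The 5 places with CACGTG are shown with their flanks, 30 bases each on the gene's strand, with the motif in capitals, so that the base after the core can be compared.
Atic, chr1:71557137-71557166, plus strand: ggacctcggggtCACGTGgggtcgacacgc
Nme1, chr11:93968037-93968066, minus strand: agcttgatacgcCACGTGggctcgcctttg
Nme1, chr11:93968273-93968302, minus strand: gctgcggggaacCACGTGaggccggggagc
Paics, chr5:76951087-76951116, plus strand: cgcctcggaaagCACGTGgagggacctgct
Tyms, chr5:30073669-30073698, minus strand: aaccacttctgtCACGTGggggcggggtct
The motif began 7 bases before the start in Atic, 29 and 18 bases before the 2 annotated starts of Nme1, 203 bases before that of Paics and 61 before that of Tyms. Of these 4 genes Nme1 was called higher in tumour lines (0.53), and Atic (0.07), Paics (-0.16) and Tyms (0.09) were not called. The genes that were lower by the largest sizes, Cad, Gart and Shmt2, held none of these letters in this window. Since 6.02% of all promoters hold CACGTG, its absence from so few genes tells little, and bases after the start were not searched.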

How the data were processed

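RNA of 8 mouse cell cultures was measured on Affymetrix arrays, and groups and line numbers were taken from titles and source names. The authors deposited RMA values on the log2 scale. RMA corrects background, normalizes between arrays and summarises the probes of a set. RMA and Partek are named without versions, per the submitters' processing notes, and the sources used here give no genome build. RMA pulls dim signals towards a floor and removes changes in total RNA, so levels are relative to the array. Of 45101 probe sets, 34945 had 1 gene symbol in the platform annotation. Those with several (932) or none (9160) and 64 controls were left out of gene tests.

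Each of 18193 genes was represented by its brightest probe set. Limma (version 3.58.1, R 4.3.3) fitted 1 coefficient per group over 8 arrays, with eBayes. Tests were two-sided, and p-values were adjusted by the Benjamini-Hochberg method across all genes. Errors beside differences are standard errors from that fit. The fit was tested on simulated data. Members given array by array were those called, with groups apart and a difference of at least 0.5, plus the member of smallest difference in each route; of the other pathway genes, the 4 largest called rises and 4 largest called falls are named. Array values of Tk1 and Rrm2 were added after they were seen. The members and lists were chosen with earlier results of these data known, and the background among genes above the median level was added after seeing the data. Alternatives were other choices of probe set, level filter, prior, array weights, normalization and reference, and each array left out. The number of arrays limits the precision.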

Additional observations from a re-analysis of the deposited data

Results flagged for a closer look

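Among the 32 members, 1 had a tumour line far from the other lines by Dixon's test. Rrm2 read 11.75 in tumour line 4 and 12.54 to 12.62 in the other lines, a gap of 0.915 of the group's range, above the critical value. Its other probe sets also read lowest in that line, at 9.55 and 11.29. Chance flags about 1 in 20 such groups.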

How the results depend on the processing

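Of the 19 members called between tumour lines and parental arrays, 13 stayed called in the same direction under all alternatives run, and Impdh1, Gmps, Prpsap1, Tk1, Dut and Shmt1 did not. Of 13 uncalled members, 6 (Ppat, Prps2, Umps, Aprt, Rrm2 and Mthfd1) were called under some alternative, and no called member changed direction. With the library labelled GFP-transfected counted as parental, 5 members were higher and the members' median was -0.22. Averaging each gene's probe sets, the median was -0.11. Over all probe sets tested singly, 11843 were called. When 1 array was left out, members higher ran from 6 to 8, members lower from 9 to 12, and all genes called from 5030 to 6649. For the library labelled GFP-transfected against parental arrays, members higher ran from 3 (without parental array 2 or 3) to 8. No scaling moved the median of all genes by over 0.1. No paired analysis was possible because tumour lines are numbered 3 to 6 and parental arrays 1 to 3, so that the groups share 1 number, which names no common source. Dim probe sets near the floor limit what could be seen for Tyms.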

Other observations

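The library labelled GFP-transfected differed from the parental arrays in nucleoside genes outside the main list as well. Ada, which deaminates adenosine, was at 7.14 in that library and at 8.65 in the parental mean, a difference of -1.50 called by limma, and Ak1, an adenylate kinase, differed by -1.44. Ak4, a mitochondrial adenylate kinase, was 1.64 higher in that library, and Slc19a1, the reduced folate carrier, was 0.73 higher. Tumour lines differed from parental arrays by 0.20 for Ada (not called), -0.53 for Ak1, 1.15 for Ak4 and -0.02 for Slc19a1 (not called). Both comparisons share the parental arrays. Ggh, which trims polyglutamate tails from folates, was 0.95 higher in tumour lines than in parental arrays, and Slc25a32, the mitochondrial folate carrier, was 1.03 higher. In the library labelled GFP-transfected, Slc25a32 differed from the parental mean by 0.81 and Ggh by -0.65. These genes were singled out after their values were seen.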
